A study of Mus musculus with 45 samples.

Results

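Cep85, Fmn2, Car12, Ier5 and Nek6 are the 5 genes examined here, out of 28196 measured by RNA sequencing of mouse splenic B2 cells in culture. They were chosen from these data: in cells lacking exon 1A of Prdm1 (dEx1A), set against wild type cells of the same culture and day, Cep85 and Fmn2 were lower and Car12, Ier5 and Nek6 were higher in all 6 combinations of 3 cultures and 2 days. Every level below is the deposited log2 value, a variance-stabilised expression value whose floor of 3.04 stands for a count of 0. Because the differences between genotypes chose the genes, they are described below and not tested, and tests are kept for changes in time, for differences between cultures and for genes outside the 5.

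The 5 genes act in different places in the cell. Cep85 is a centrosomal protein that, in human cells, restrains the kinase NEK2 to keep centrosomes joined and helps STIL and PLK4 in centriole duplication. Fmn2 is a formin, a nucleator of straight actin filaments that works beside the Spire nucleators in mouse oocytes. Car12 is a carbonic anhydrase anchored in the plasma membrane, where it interconverts carbon dioxide and bicarbonate at the cell surface. Ier5 is an immediate early gene whose human protein joins the phosphatase PP2A to the heat shock factor HSF1. Nek6 is a mitotic kinase that, in human cells, is switched on by NEK9 and phosphorylates the spindle motor KIF11. Prdm1 encodes Blimp-1, the zinc finger repressor that B cells need to become antibody-secreting cells, and its transcripts can begin at alternative first exons, of which exon 1A is one.

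The 45 libraries formed 15 groups of 3. The dEx1A groups came from each culture (LPS, TLR, BCR) at days 4 and 7, and all 18 libraries are labelled as plasmablasts of 9-week-old females carrying the Prdm1 exon 1A deletion on a C57BL/6 background. Wild type LPS cultures at days 4 and 7 are also labelled as 9-week-old females, whereas wild type B cells at day 0 and the wild type cells of days 4, 7 and 10 from TLR or BCR culture are labelled as 7-week-old males, all C57BL/6. Feeder cells displaying CD40L, with IL-4 and IL-5, supported both the TLR culture, where LPS was the stimulus, and the BCR culture, where antibody fragments against IgM and IgG took its place. The feeders were left behind at day 2, and IL-6 and APRIL were added from day 4. The make-up of the LPS culture, the way the deletion was made and whether the 3 libraries of a group came from separate mice are not stated by the labels, so p-values measure only the spread between these libraries.

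Recovered reads per library ran from 15.05 to 35.51 M with a median of 23.17 M. All 6 wild type LPS libraries and all 9 dEx1A day 7 libraries had fewer than 20 M reads. They also lay above the other 30 in a GC offset, the deviation of GC-rich genes less that of GC-poor genes. It was 0.73 to 1.68 in these 15 libraries and -1.92 to 0.6 in the others. This split is called library set below. It was read from the data and no label gives it, and the reads lie close at the cut (19.56 and 20.26 M). Xist followed the labelled sex, at 13.27 to 16.43 in the female groups and 3.91 to 7.16 in the male groups. The genotypes were therefore alike in sex, age and library set at day 7 in LPS, alike in sex and age at day 4 in LPS, alike in library set at day 4 in TLR and BCR, and different in all of these at day 7 in TLR and BCR, where genotype, sex, age and library set cannot be told apart. Summed reads of 6 antibody-secreting cell markers at day 4 were 18098 to 35481 in dEx1A and 115780 to 120276 in wild type LPS cultures. They were 31441 to 44951 in dEx1A and 29509 to 36854 in wild type TLR cultures, and 13376 to 19610 in dEx1A and 21181 to 32838 in wild type BCR cultures. The dEx1A sums were thus lower without overlap in LPS and BCR at day 4. At day 7 the sums were 279273 to 327592 in dEx1A and 307765 to 453736 in wild type LPS cultures. They were 360149 to 440428 in dEx1A and 1128372 to 1638707 in wild type TLR cultures, and 49483 to 90703 in dEx1A and 429028 to 575542 in wild type BCR cultures. At day 7 the dEx1A sums were lower without overlap in TLR and BCR. Summed reads of 10 fibroblast feeder markers at day 7 were 602 to 675 in dEx1A and 71 to 191 in wild type TLR cultures, and 4939 to 6991 in dEx1A and 458 to 549 in wild type BCR cultures. At day 4 the feeder sums of the genotypes overlapped in both cultures. None of the 6 B cell markers was at 0 in any group, and the part of cell composition in any difference below was not tested. In bulk RNA, fewer expressing cells and less RNA per cell cannot be told apart.

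Prdm1 itself was read over the whole gene, so its level is not a measure of exon 1A. It read 9.93, 9.60 and 10.01 in dEx1A, against 12.55, 12.68 and 12.34 in wild type in LPS at day 4, and 11.10, 11.32 and 11.22 in dEx1A, against 12.40, 12.66 and 12.77 in wild type at day 7. In TLR cultures it read 9.91, 9.71 and 10.61 in dEx1A, against 9.83, 9.66 and 9.86 in wild type at day 4, and 11.90, 11.81 and 11.72 in dEx1A, against 13.43, 13.04 and 13.09 in wild type at day 7. The genotypes overlapped at day 4 in TLR and did not overlap in these other 3 comparisons. BCR cultures gave 8.45, 7.27 and 8.82 in dEx1A, against 9.68, 9.32 and 10.23 in wild type at day 4, and 10.02, 10.10 and 10.80 in dEx1A, against 12.48, 12.33 and 12.56 in wild type at day 7, with no overlap. By limma, whole-gene Prdm1 was lower in dEx1A, with differences of -2.68, -1.40, -1.38, -1.56 and -2.15 log2 units in LPS at days 4 and 7, TLR at day 7 and BCR at days 4 and 7, each with an adjusted p of at most 0.000949. Its difference of 0.29 ± 0.28 (SE) at day 4 in TLR had an adjusted p of 0.571.

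The 5 genes lie on 4 chromosomes. In GRCm38 coordinates, Cep85 (ENSMUSG00000037443.13) lies at 4:134129858-134187112 on the minus strand, Fmn2 (ENSMUSG00000028354.13) at 1:174501825-174822729 on the plus strand, and Ier5 (ENSMUSG00000056708.5) at 1:155096361-155099636 on the minus strand. Car12 (ENSMUSG00000032373.15) lies at 9:66713686-66766845 and Nek6 (ENSMUSG00000026749.11) at 2:38511643-38594606, both on the plus strand. The 250 bases before each RefSeq start site (GRCm38.p6) were read for motifs on both strands, since each gene differed in a constant direction in cells with a changed repressor. The genes were picked for the direction of their genotype differences, and the group means include the groups that the rule used. Correlations among them, and the most similar patterns given below for each gene, are therefore partly set by that choice. Over the 15 group means, Pearson correlations between pairs of the 5 ran from -0.93 (Cep85 with Car12) to 0.45 (Car12 with Nek6). The core of the motif that Blimp-1 is known to bind, AGNGAAAG, was in none of the 5 genes' windows and is in 7.3% of all 32851 such windows. A CCAAT box, bound by the general activator NF-Y, stood at 2 places each in the windows of Cep85, Fmn2 and Ier5, against 10.1% of all windows with at least 2. These 3 windows are printed 5′ to 3′ because their inner boxes lie at almost the same place, beginning 45, 47 and 46 bases before the start, and the capitals mark the CCAAT box or its reverse, ATTGG.
Cep85, chr4:134187086-134187335, minus strand: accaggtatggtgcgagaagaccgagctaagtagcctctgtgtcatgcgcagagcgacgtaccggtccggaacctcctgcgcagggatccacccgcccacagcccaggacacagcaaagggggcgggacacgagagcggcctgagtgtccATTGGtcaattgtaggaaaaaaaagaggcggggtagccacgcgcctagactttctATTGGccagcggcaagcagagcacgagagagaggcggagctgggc
Fmn2, chr1:174501575-174501824, plus strand: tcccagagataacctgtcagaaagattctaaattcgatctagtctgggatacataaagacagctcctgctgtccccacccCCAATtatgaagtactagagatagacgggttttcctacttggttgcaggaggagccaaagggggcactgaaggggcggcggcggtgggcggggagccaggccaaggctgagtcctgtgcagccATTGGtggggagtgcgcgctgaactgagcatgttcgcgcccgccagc
Ier5, chr1:155099637-155099886, minus strand: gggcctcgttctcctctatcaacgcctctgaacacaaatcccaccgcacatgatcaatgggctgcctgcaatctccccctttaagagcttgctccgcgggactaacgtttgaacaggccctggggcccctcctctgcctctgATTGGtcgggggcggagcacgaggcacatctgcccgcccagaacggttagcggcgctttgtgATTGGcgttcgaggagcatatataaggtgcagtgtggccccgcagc
The outer boxes begin 100 bases before the start in Cep85, 170 in Fmn2 and 108 in Ier5. Both directions of change are among these 3 genes, and CCAAT boxes are in 33.8% of all windows. How many of all windows hold a box at the place of the inner boxes was not counted. Nek6 has 1 such box, 232 bases before the first of its 2 listed starts, with TATAAA (in 12.4% of all windows) 206 bases before it, and Car12 has neither. Of the other motifs searched, a heat shock element (0.466% of windows) and a hypoxia element core (ACGTG, 16.6%) were in none of the 5, and GGGCGG, which is in 32.7% of windows, was in all of them. A match is letters in a window, not a bound site.

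**Figure D1:**
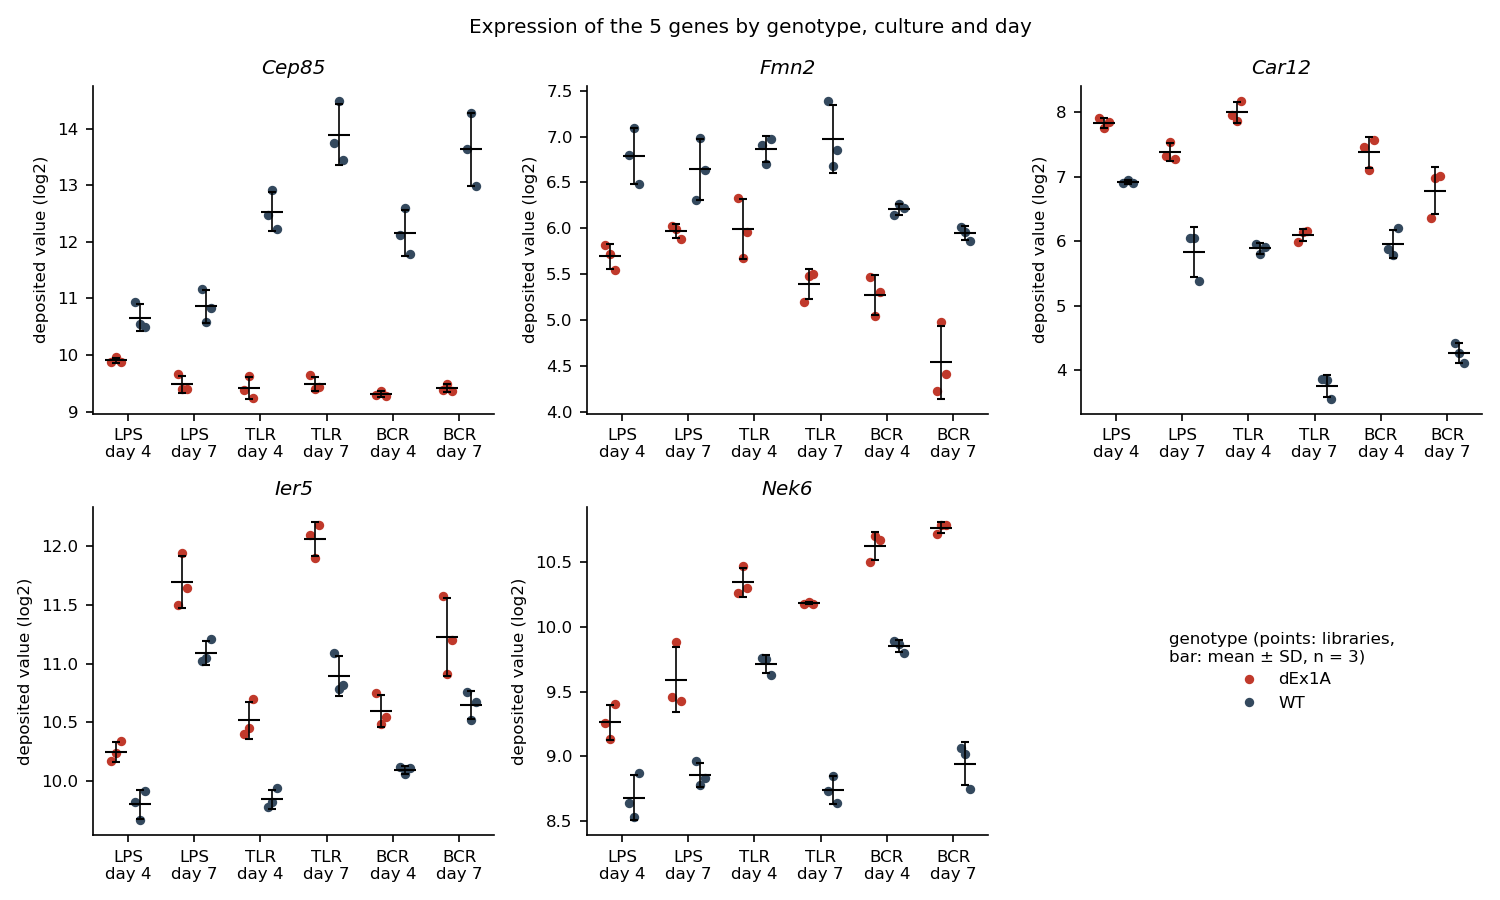
Deposited log2 value of the 5 genes in every dEx1A and WT library by culture and day; points are libraries and bars are means with SD (n = 3). The dEx1A points lie below the WT points throughout for Cep85 and Fmn2 and above them for Car12, Ier5 and Nek6, and Cep85 stays between 9.25 and 9.96 in all 18 dEx1A libraries.

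Of the 20331 genes tested, 1549 had a difference of the same sign in all 6 comparisons between genotypes. An adjusted p below 0.05 in all 6 was met by 3 genes that were higher in dEx1A (0.0148% of those tested), namely Car12, Ier5 and Nek6, and by 4 that were lower (0.0197%), namely Cep85, Fmn2 and the noncoding genes Gm42031 and Gm43305. In the single comparisons the share of genes passing was 24.4% and 7.08% in LPS at days 4 and 7, 7.23% and 54.8% in TLR, and 1.86% and 50.8% in BCR. The largest of the 6 adjusted p-values was 0.000433 for Car12 and 0.000703 for Nek6, and nearer to the limit for Cep85 (0.0407), Ier5 (0.0441) and Fmn2 (0.0478). Just outside the rule stood Tpm3, a tropomyosin, at 0.0535 and Amd2, an enzyme of polyamine synthesis, at 0.068, both higher in dEx1A. These values are given as the means of choice and support nothing further. Without a p, libraries of the genotypes did not overlap in any of the 6 comparisons for 39 genes that were higher (0.192%) and 32 that were lower (0.157%) in dEx1A, the 5 among them.

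**Figure D2:**
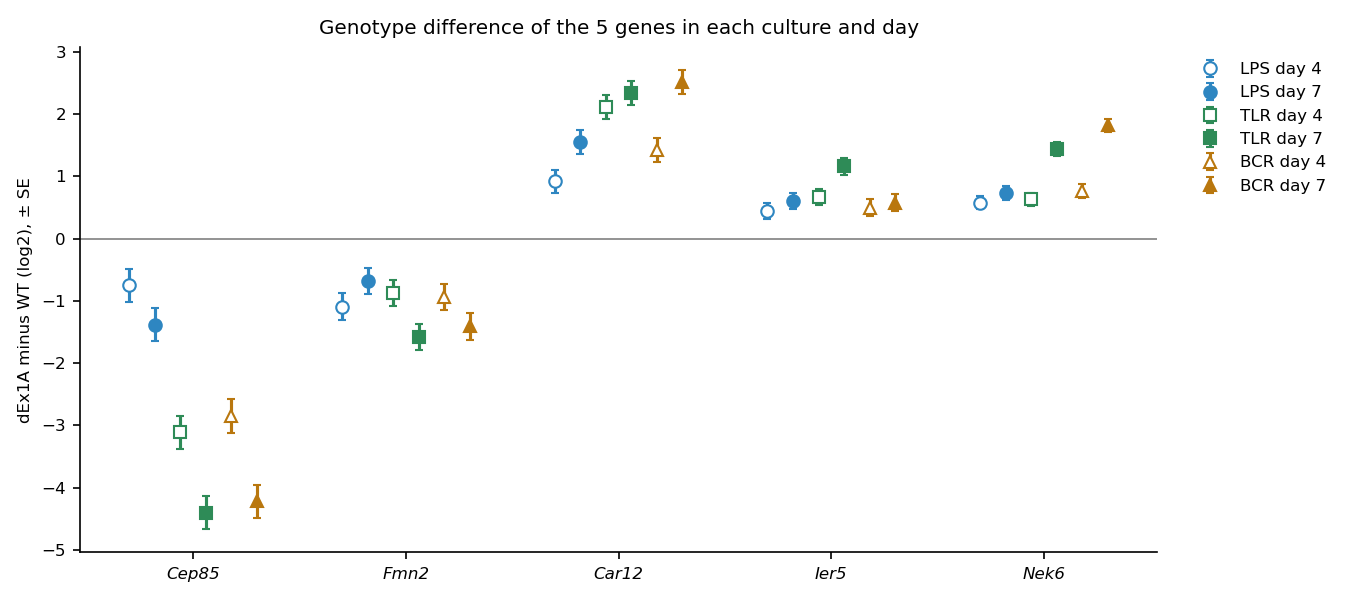
Difference of dEx1A minus WT (log2, ± SE from limma) for the 5 genes in each culture and day; open symbols are day 4 and filled symbols day 7. Cep85 runs from -0.75 in LPS at day 4 to -4.40 in TLR at day 7, and the other 4 genes stay within -1.58 and 2.52.

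Cep85 was the gene with the widest range. It read 9.88, 9.96 and 9.88 in dEx1A, against 10.93, 10.55 and 10.50 in wild type in LPS at day 4. At day 7 in LPS it read 9.66, 9.40 and 9.40 in dEx1A, against 11.17, 10.59 and 10.83 in wild type. In TLR cultures at day 4 it read 9.39, 9.63 and 9.25 in dEx1A, against 12.47, 12.91 and 12.22 in wild type. All dEx1A libraries lay below all wild type ones, with 0.54 between the closest libraries in LPS and 2.59 at day 4 in TLR. TLR cultures at day 7 gave 9.64, 9.41 and 9.43 in dEx1A, against 13.74, 14.49 and 13.45 in wild type. BCR cultures at day 4 gave 9.29, 9.37 and 9.28 in dEx1A, against 12.12, 12.59 and 11.78 in wild type. For day 7 in BCR the values were 9.39, 9.49 and 9.36 in dEx1A, against 13.64, 14.28 and 12.99 in wild type. The dEx1A libraries were low everywhere, at 592.5 to 979.6 normalised reads, whereas wild type libraries of day 0, TLR and BCR held 3500.2 to 56250.5 and those of LPS 1431.7 to 2287.7. The differences (log2, ± SE) were -0.75 ± 0.27 and -1.38 ± 0.27 in LPS at days 4 and 7, -3.11 ± 0.27 and -4.40 ± 0.27 in TLR, and -2.85 ± 0.27 and -4.22 ± 0.27 in BCR. On the scale of normalised reads, dEx1A held 0.376 times the wild type level at day 7 in LPS, where sex, age and library set were alike, and 0.0443 times at day 7 in TLR.

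In wild type TLR and BCR cells Cep85 changed between days, and in dEx1A cells no step passed in the fit over all groups. From day 0 over days 4, 7 and 10 the wild type TLR means were 13.38, 12.53, 13.89 and 15.05, and the BCR means 13.38, 12.16, 13.64 and 14.62. By limma it fell at day 4 in BCR (-1.22 ± 0.40, adjusted p = 0.0167) and rose by 1.36 ± 0.40 (0.0126) and 1.47 ± 0.40 (0.0089) between days 4 and 7 in TLR and BCR. The day 4 step in TLR (-0.85 ± 0.40, adjusted p = 0.0894) and the day 10 steps (1.15 ± 0.40 in TLR, 0.0868, and 0.99 ± 0.40 in BCR, 0.105) did not pass. The TLR ones passed without library 3 of day 0 (0.0404) and library 3 of day 10 (0.0258). With a replicate block in the limma fit, these steps had adjusted p-values of 0.002, 0.00212 and 0.00317, in the same order. Replicate numbers were not taken to pair libraries in these steps, by a rule on correlations over all genes. For Cep85 itself, library 2 was highest in 7 of 7 wild type groups of day 0, TLR and BCR. Each call made without the block depended on single libraries. Without library 2 of day 7 the adjusted p of the day 7 step was 0.0697 in TLR and 0.0583 in BCR. Without library 2 of day 0 or library 3 of day 4 the adjusted p of the BCR day 4 step was 0.095 or 0.0718. In LPS the wild type step of day 7 was 0.20 ± 0.27 (adjusted p = 0.772). The dEx1A steps of day 7 were -0.42 ± 0.27 in LPS (0.247; 0.0282 when only the groups compared were fitted, with no overlap of libraries), 0.07 ± 0.27 in TLR (0.844) and 0.10 ± 0.27 in BCR (0.781). In order of level, the 9 wild type groups came before the 6 dEx1A groups, and libraries of neighbouring groups overlapped in 11 of 14 pairs, the exceptions being the steps from BCR day 4 to LPS day 7 and from LPS day 4 to dEx1A LPS day 4 and on to dEx1A TLR day 7. Within a genotype and day, no pair of cultures differed in Cep85 at an adjusted p below 0.05 in the fit over all groups. When only the groups compared were fitted, dEx1A LPS exceeded TLR (0.48, 0.0347) and BCR (0.59, 0.00279) at day 4, where the libraries did not overlap.

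The reads counted for Cep85 need not all come from its coding transcripts. Of 5293 different 50-base words in the Cep85 transcripts of GENCODE M21, 437 (8.26%) also occur in transcripts of 276 other genes on the opposite strand or 275 on the same strand. None of the shared words lies in a protein-coding transcript, and 421 of them lie in a noncoding transcript of 1010 bases, from its base 420 to its end, which is part of exon 4 at 4:134164112-134164702. Cnbd2 shares 393 words and Gm26880 shares 156 on the same strand, and Gm43305 shares 146 and Gm42031 shares 124 on the opposite strand. A read from such a stretch cannot be placed by its sequence alone, and isoform values were not used here. Fmn2, Car12 and Ier5 shared no word with another gene, and Nek6 shared words with 1 gene, given below with its values.

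Gm42031 and Gm43305, the genes that met the rule beside Cep85, moved with it. Gm42031, a long noncoding RNA, read 6.98, 6.21 and 6.03 in dEx1A at day 7 in LPS, against 9.09, 8.15 and 8.65 in wild type. Its differences were -3.18, -2.22, -6.12, -6.30, -5.82 and -6.71 log2 units in LPS days 4 and 7, TLR days 4 and 7 and BCR days 4 and 7, and those of Gm43305 were -2.35, -1.08, -4.76, -3.98, -4.31 and -4.89. The library that was highest for Cep85 was also highest for Gm42031 and for Gm43305 in 7 of 7 wild type groups of day 0, TLR and BCR, and it was library 2 in each of these groups. In dEx1A groups the highest library was shared in 2 of 6 for each. For Cnbd2 it was shared in 0 of the 7 wild type groups and 1 of 6 dEx1A groups, and for Gm26880 in 0 of 7 and 4 of 6. In wild type LPS it was shared in 2 of 2 groups for Gm42031, Gm43305 and Gm26880 and in 0 of 2 for Cnbd2. Among all genes the patterns most like that of Cep85 over the 15 group means were those of Gm42031 (Pearson r = 0.959), Gm29650 (0.949) and Gm12953 (0.938), all noncoding. Cnbd2 and Gm26880, which share sequence on the same strand, were lower in dEx1A in every TLR and BCR comparison. In TLR at days 4 and 7 and BCR at days 4 and 7, the differences were -1.69, -0.95, -1.82 and -1.69 for Cnbd2 (limma adjusted p of at most 0.013) and -3.61, -3.67, -3.54 and -4.29 for Gm26880 (at most 1.32e-06). They did not meet the rule, because of LPS: at day 4 Cnbd2 differed by -0.51 ± 0.32 (0.266) and Gm26880 by -1.19 ± 0.42 (0.0366), and at day 7 they differed by -0.19 ± 0.32 (0.906) and 1.00 ± 0.42 (0.184). The part of shared sequence in the Cep85 values was not tested.

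**Figure D3:**
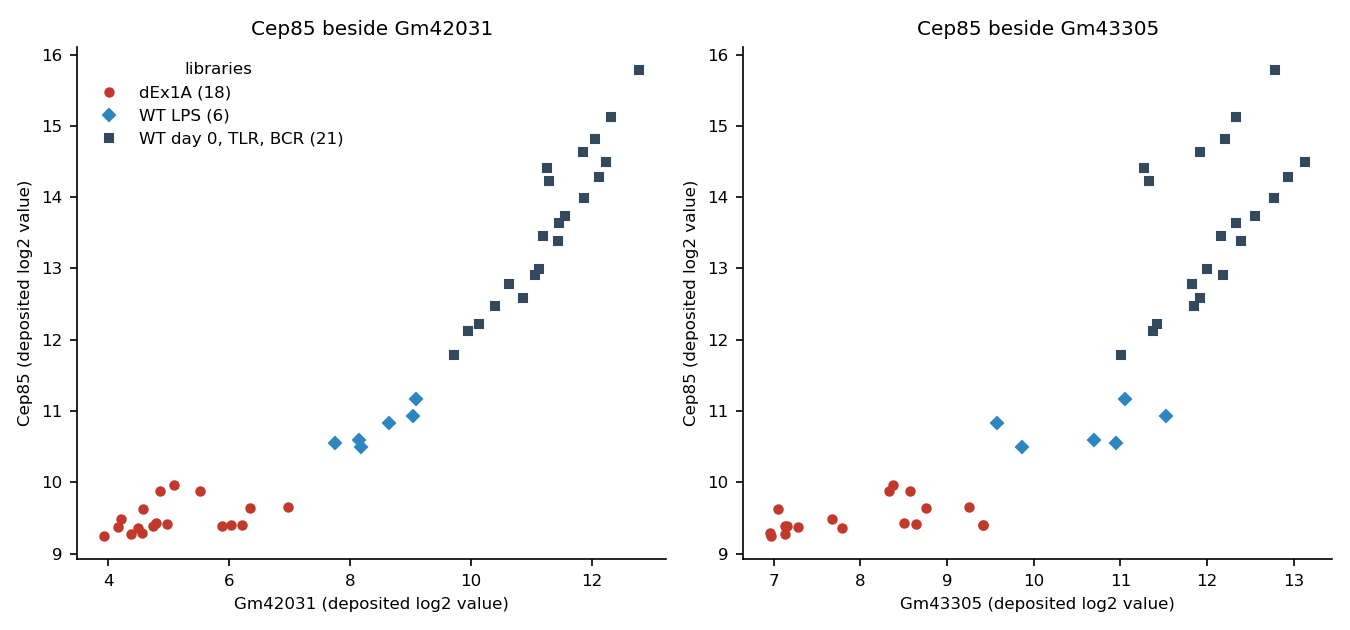
Cep85 against Gm42031 (left) and Gm43305 (right), deposited log2 values, 1 point per library: 18 dEx1A, 6 WT LPS and 21 WT libraries of day 0, TLR and BCR. The dEx1A points lie between 9.25 and 9.96 in Cep85, and the WT points of day 0, TLR and BCR, which reach 15.78, are also high in both partner genes.

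Between genotypes, genes of centrosome cohesion and centriole duplication passed in both directions or not at all. Up and rose here mean higher in dEx1A than in wild type, and down and fell mean lower. Of 19 such genes tested besides Cep85, none passed in LPS at day 7, TLR at day 4 or BCR at day 4. There 7.08%, 7.23% and 1.86% of all genes passed. The counts were 2 up and 4 down in LPS at day 4, 7 up and 7 down in TLR at day 7, and 6 up and 6 down in BCR at day 7. Among all genes, 24.4%, 54.8% and 50.8% passed in these comparisons. Their median differences were between -0.24 and 0.15, against -0.04 to 0.01 over all genes. The paralog Cep85l fell at day 7 in TLR (-1.27 ± 0.30, limma adjusted p = 0.000748) and BCR (-0.83 ± 0.30, 0.0227) and did not pass at day 7 in LPS (-0.40 ± 0.30, 0.6). Nek2, the kinase that Cep85 restrains, rose by 0.34 ± 0.09 (0.00315) at day 7 in BCR and by 0.24 ± 0.09 (0.0287) in TLR. Plk4, the kinase of centriole duplication, fell at day 7 in TLR (-0.81 ± 0.19, 0.000625). Stil, its scaffold, passed in none of the 6 comparisons.

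Fmn2 was the other gene that was lower in dEx1A. It was read at low depth, at 5.8 to 64.8 normalised reads in dEx1A libraries, 63.7 to 120.3 in wild type LPS and 6.8 to 151.7 in wild type day 0, TLR and BCR libraries, a range where the transformation shrinks differences. In LPS it read 5.82, 5.72 and 5.55 in dEx1A, against 6.80, 7.09 and 6.48 in wild type at day 4, and 6.03, 5.99 and 5.88 in dEx1A, against 6.31, 6.98 and 6.64 in wild type at day 7. In TLR cultures Fmn2 read 6.33, 5.68 and 5.96 in dEx1A, against 6.91, 6.70 and 6.97 in wild type at day 4, and 5.20, 5.48 and 5.50 in dEx1A, against 7.39, 6.68 and 6.85 in wild type at day 7. BCR cultures gave Fmn2 5.47, 5.04 and 5.30 in dEx1A, against 6.14, 6.26 and 6.22 in wild type at day 4, and 4.22, 4.98 and 4.41 in dEx1A, against 6.01, 5.96 and 5.86 in wild type at day 7. The genotypes did not overlap, but the closest libraries were 0.28 apart at day 7 in LPS, the comparison alike in sex, age and library set. The differences were -1.09 ± 0.21 and -0.68 ± 0.21 in LPS at days 4 and 7, -0.87 ± 0.21 and -1.58 ± 0.21 in TLR and -0.94 ± 0.21 and -1.41 ± 0.21 in BCR. In normalised reads dEx1A held between 0.224 and 0.549 times the wild type level, the last at day 7 in LPS.

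Fmn2 rose on activation and was higher in TLR than in BCR cells of both genotypes at day 7. In wild type the TLR means over days 0, 4, 7 and 10 were 4.69, 6.86, 6.97 and 6.40, and the BCR means 4.69, 6.21, 5.94 and 4.86. By limma the day 4 steps of 2.17 ± 0.21 in TLR (adjusted p = 9.84e-08) and 1.52 ± 0.21 in BCR (7.09e-06) passed, the day 7 steps did not (0.11 and -0.26), and at day 10 it fell in BCR (-1.08 ± 0.21, 0.00191) but not past the threshold in TLR (-0.58 ± 0.21, 0.097). The BCR day 10 call was lost without libraries 1 and 2 of that group (-0.87, adjusted p = 0.0786), which held the most myeloid marker reads. In dEx1A it fell between days 4 and 7 in TLR (-0.60 ± 0.21, 0.0157) and BCR (-0.73 ± 0.21, 0.00459) but not past the threshold in LPS (0.27 ± 0.21, 0.356), and the TLR call was lost without library 1 of either day (0.118 and 0.0717). TLR exceeded BCR by 0.72 ± 0.21 (0.0163) and 0.86 ± 0.21 (0.00218) at days 4 and 7 in dEx1A, and by 0.65 ± 0.21 (0.0638), 1.03 ± 0.21 (0.00641) and 1.54 ± 0.21 (0.000288) at days 4, 7 and 10 in wild type. The dEx1A call at day 4 was lost without TLR library 1 (0.138) or BCR library 2 (0.111), and the wild type call at day 7 without TLR library 1 (0.0506). When only the groups compared were fitted, the calls between TLR and BCR were lost at days 4 (0.125) and 7 (0.0733) in dEx1A and day 10 (0.165) in wild type, as were the dEx1A day 7 steps in TLR (0.0652) and BCR (0.0629). The wild type difference of day 4 passed by voom (0.0376), with GC correction (0.0421) and with untrended empirical Bayes (0.0478). LPS exceeded BCR in dEx1A at day 7 by 1.43 ± 0.21 (2.77e-06).

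In order of level, wild type TLR day 7 was highest and dEx1A BCR day 7 lowest for Fmn2, with libraries of neighbouring groups overlapping in 12 of 14 pairs. The patterns most like it over the 15 group means were those of Slc7a3, an amino acid transporter (r = 0.858), the pseudogene Gm5224 (0.831) and Hivep3, a zinc finger protein (0.831). Between genotypes, 18 other formins and actin nucleators were tested, where rose means higher in dEx1A than in wild type and fell means lower. At day 7 in BCR 9 rose and 3 fell (median difference 0.49, against 0.00 over all genes), while 50.8% of all genes passed. In TLR at day 7 4 rose and 2 fell, and in LPS at day 4 3 rose and 2 fell, where 54.8% and 24.4% of all genes passed. At day 4 1 rose in each of TLR and BCR, where 7.23% and 1.86% of all genes passed. At day 7 in LPS the formins Daam1 (0.66 ± 0.17) and Fhod3 (0.86 ± 0.23) rose and Fmnl3 (-0.87 ± 0.20) fell, where 7.08% of all genes passed. Spire1, a partner of Fmn2, rose at day 7 in BCR (1.15 ± 0.17, limma adjusted p = 2.01e-06) and at day 4 in LPS (0.57 ± 0.17, 0.0142) and TLR (0.54 ± 0.17, 0.0494). Spire2 rose by 0.71 ± 0.29 (0.0379) at day 7 in BCR, and Fmn1, the nearest paralog, passed in no comparison.

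Car12 was the gene that was higher in dEx1A by the most. In LPS it read 7.91, 7.76 and 7.86 in dEx1A, against 6.91, 6.95 and 6.90 in wild type at day 4, and 7.33, 7.54 and 7.28 in dEx1A, against 6.06, 6.06 and 5.38 in wild type at day 7. In TLR cultures Car12 read 7.96, 7.87 and 8.18 in dEx1A, against 5.96, 5.80 and 5.92 in wild type at day 4, and 5.99, 6.15 and 6.16 in dEx1A, against 3.87, 3.85 and 3.56 in wild type at day 7. BCR cultures gave Car12 7.47, 7.11 and 7.57 in dEx1A, against 5.88, 5.79 and 6.21 in wild type at day 4, and 6.37, 6.98 and 7.01 in dEx1A, against 4.42, 4.27 and 4.11 in wild type at day 7. The genotypes were at least 0.81 apart in every comparison, and the wild type values of day 7 in TLR, 1.1 to 2.8 normalised reads, were near the floor while those of dEx1A were 48.2 to 56.0. The differences were 0.92 ± 0.19 and 1.55 ± 0.19 in LPS at days 4 and 7, 2.11 ± 0.19 and 2.34 ± 0.19 in TLR and 1.42 ± 0.19 and 2.52 ± 0.19 in BCR, and those against groups near the floor are understated. In normalised reads dEx1A held 2.03 and 3.51 times the wild type level in LPS at days 4 and 7, and 5.46 and 3.22 times at day 4 in TLR and BCR.

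Car12 rose on activation in wild type cells and fell again by day 7, and it also fell by day 7 in dEx1A TLR and BCR cultures, while dEx1A LPS cultures lay at the threshold. Over days 0, 4, 7 and 10 the wild type means were 3.83, 5.89, 3.76 and 3.25 in TLR and 3.83, 5.96, 4.27 and 3.54 in BCR, and 3 of the 6 day 10 libraries were listed at the floor. By limma it rose by 2.06 ± 0.24 (adjusted p = 1.43e-06) and 2.13 ± 0.24 (8.44e-07) at day 4 in TLR and BCR. Between days 4 and 7 it fell in TLR (-2.13 ± 0.24, 1.87e-06), in BCR (-1.69 ± 0.24, 3.14e-05) and in wild type LPS cultures (-1.09 ± 0.19, 0.000268). The day 10 step passed in BCR (-0.72 ± 0.24, 0.0486) and not in TLR (-0.51 ± 0.24, 0.221). The BCR call was lost without any 1 of the 3 day 7 libraries or of day 10 libraries 1 and 3 (0.0712 to 0.176), and with no filter on low values (0.0704). In dEx1A the same step was -1.90 ± 0.19 in TLR (6.58e-10), -0.60 ± 0.19 in BCR (0.00798) and -0.46 ± 0.19 in LPS (0.0553). The LPS step passed when only the groups compared were fitted (0.0343), by voom (0.0481) and with untrended empirical Bayes (0.0483). The BCR step was lost without library 1 of day 7 (-0.39, 0.0993), after GC correction (-0.39, 0.0633) and when only the groups compared were fitted (0.0984). Between cultures of dEx1A, TLR exceeded BCR by 0.62 ± 0.19 (0.0184) at day 4 and lay below it at day 7 (-0.69 ± 0.19, 0.00475), when LPS exceeded TLR by 1.28 ± 0.19 (5.1e-06) and BCR by 0.60 ± 0.19 (0.0139). The day 4 call was lost without TLR library 3 (0.103) or BCR library 2 (0.151), and the last one without LPS library 2 (0.0658) or BCR library 1 (0.141). When only the groups compared were fitted, the differences of TLR from BCR (0.0919 and 0.102 at days 4 and 7) and of LPS from BCR at day 7 (0.14) were lost too. At day 4 LPS minus BCR was 0.46 ± 0.19 (0.0529) and passed by voom (0.0225), after GC correction (0.014) and with untrended empirical Bayes (0.0463). No difference between TLR and BCR passed in wild type, where the values were -0.07, -0.51 and -0.30 at days 4, 7 and 10.

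The 7 highest groups for Car12 were the 6 of dEx1A and wild type LPS day 4, and libraries of neighbouring groups overlapped in 9 of 14 pairs. Its pattern over the 15 group means was most like those of Smn1 (r = 0.958), Lyar (0.956) and Snrpf (0.954). Between genotypes, 18 other carbonic anhydrases and pH and bicarbonate transporters were tested. As used here, rose means higher in dEx1A than in wild type, and fell means lower. None rose and 2 fell at day 7 in LPS, 7 rose and 1 fell at day 7 in TLR, and 7 rose and 3 fell at day 7 in BCR. The shares of all genes passing there were 7.08%, 54.8% and 50.8%. At day 4 the counts were 3 and 1 in LPS, 1 and 1 in TLR and 0 and 0 in BCR, beside 24.4%, 7.23% and 1.86% of all genes. Car2, the cytosolic enzyme, fell at day 7 in LPS (-1.52 ± 0.25, limma adjusted p = 6.4e-05) and rose at day 7 in TLR (1.28 ± 0.25, 8.45e-05) and BCR (1.28 ± 0.25, 9.27e-05). The anion exchanger Slc4a3 fell at day 7 in LPS (-0.88 ± 0.22). Car13 rose at day 4 in LPS (0.52 ± 0.19, 0.0398) and fell at day 7 in BCR (-0.48 ± 0.19, 0.0319). Car9, another cell surface enzyme, rose at day 7 in TLR (0.78 ± 0.30, 0.0296).

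Ier5 had the smallest shift of the 5 genes in 5 of 6 comparisons, the exception being TLR day 4, where that of Nek6 was 0.63. In LPS it read 10.17, 10.24 and 10.34 in dEx1A, against 9.82, 9.67 and 9.92 in wild type at day 4, and 11.50, 11.94 and 11.64 in dEx1A, against 11.02, 11.05 and 11.21 in wild type at day 7. In TLR cultures Ier5 read 10.40, 10.45 and 10.70 in dEx1A, against 9.78, 9.82 and 9.94 in wild type at day 4, and 12.09, 11.90 and 12.18 in dEx1A, against 11.09, 10.78 and 10.82 in wild type at day 7. BCR cultures gave Ier5 10.75, 10.49 and 10.55 in dEx1A, against 10.12, 10.06 and 10.11 in wild type at day 4, and 11.57, 10.91 and 11.20 in dEx1A, against 10.76, 10.52 and 10.67 in wild type at day 7. The genotypes did not overlap, with the closest libraries 0.15 apart at day 7 in BCR and 0.25 apart at day 4 in LPS. The differences were 0.45 ± 0.13 and 0.60 ± 0.13 in LPS at days 4 and 7, 0.67 ± 0.13 and 1.16 ± 0.13 in TLR and 0.50 ± 0.13 and 0.58 ± 0.13 in BCR. In normalised reads dEx1A held between 1.37 and 2.24 times the wild type level, and 1.53 times at day 7 in LPS.

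Ier5 fell on activation in wild type cells and rose by day 7 in every culture of both genotypes. Day 0 cells were highest of all groups, at 12.51, 12.40 and 12.28, and the wild type means over days 0, 4, 7 and 10 were 12.40, 9.85, 10.90 and 11.65 in TLR and 12.40, 10.10, 10.65 and 11.22 in BCR. By limma it fell at day 4 in TLR (-2.55 ± 0.17, adjusted p = 1.01e-09) and BCR (-2.30 ± 0.17, 3.62e-09). It rose by 1.05 ± 0.17 (0.000101) and 0.55 ± 0.17 (0.0195) at day 7 and by 0.75 ± 0.17 (0.0106) and 0.57 ± 0.17 (0.0278) at day 10 in TLR and BCR. The day 7 step in BCR was lost without BCR day 4 library 2 (0.0518), day 7 library 1 (0.0637) or day 7 library 3 (0.0548), and lay at the threshold after GC correction (0.05). The day 10 step was lost in TLR without TLR day 7 library 3 (0.0521), and in BCR without day 7 library 2 (0.108), day 7 library 3 (0.0646) or day 10 library 3 (0.0912). Between days 4 and 7 it rose by 1.29 ± 0.13 in wild type LPS (1.29e-07), by 1.44 ± 0.13 in dEx1A LPS (1.45e-09), by 1.54 ± 0.13 in dEx1A TLR (6.09e-11) and by 0.63 ± 0.13 in dEx1A BCR (0.000262). At day 7 in dEx1A, TLR exceeded BCR by 0.83 ± 0.13 (1.23e-05) and LPS exceeded BCR by 0.47 ± 0.13 (0.00734), the second lost without LPS library 2 (0.0759) or BCR library 2 (0.096) and when only the groups compared were fitted (0.199). LPS minus TLR was -0.27 ± 0.13 (0.104) at day 4, which passed after GC correction (-0.50, 0.00948), and -0.36 ± 0.13 (0.0586) at day 7, which passed without LPS library 2 (0.0182) or TLR library 2 (0.0395). At day 4 in dEx1A LPS lay below BCR (-0.35 ± 0.13, 0.042), a call lost without any 1 of 5 of the 6 libraries (0.0524 to 0.186), with no filter on low values (0.0532) and with untrended empirical Bayes (0.0528).

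Libraries of neighbouring groups overlapped for Ier5 in 9 of 14 pairs. Its pattern was most like those of Jun, the AP-1 subunit (r = 0.895), Ccndbp1, a cyclin D binding protein (0.894), and the RNA Gm22204 (0.885). Between genotypes, 20 other IER, HSF1 and heat shock genes were tested, where rose means higher in dEx1A than in wild type and fell means lower. In LPS, 8 rose and 3 fell at day 4, and 1 rose and 1 fell at day 7, where 24.4% and 7.08% of all genes passed. At day 4, 3 rose in TLR and none passed in BCR, where 7.23% and 1.86% of all genes passed. At day 7, 11 rose and 3 fell in TLR and 12 rose and none fell in BCR, with a median difference of 0.66 in each. That of all genes was -0.04 and 0.00, and 54.8% and 50.8% of all genes passed. The 2 genes that passed at day 7 in LPS were the heat shock proteins Hspa1b (0.94 ± 0.29, limma adjusted p = 0.046) and Hspb1 (-1.76 ± 0.37). Hsf1 was higher in dEx1A than in wild type at day 7 in TLR (1.79 ± 0.39, 0.000324) and BCR (1.01 ± 0.39, 0.0318). It did not pass at day 7 in LPS (-0.10 ± 0.39, 0.998). Hsf1 group means were 9.43 to 9.59 in the groups with fewer than 20 M reads, which hold both genotypes. They were 7.68 to 8.90 in the other cultured groups and 9.64 at day 0. Genotype and library set cannot be told apart in the TLR and BCR differences of Hsf1 at day 7. Ier2, another immediate early gene, fell at day 4 in LPS (-2.19 ± 0.34, 1.76e-05) and rose at day 7 in TLR (3.04 ± 0.34, 3.21e-08) and BCR (1.89 ± 0.34, 3.8e-05). Ier3 rose at day 7 in TLR (1.36 ± 0.29, 0.000251) and BCR (2.28 ± 0.29, 1.68e-07). The paralog Ier5l fell at day 4 in LPS (-1.52 ± 0.34, 0.00125) and rose at day 7 in TLR (1.57 ± 0.34, 0.000274).

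Nek6 was higher in dEx1A by more at day 7 than at day 4 in TLR and BCR. In LPS it read 9.26, 9.13 and 9.40 in dEx1A, against 8.64, 8.53 and 8.87 in wild type at day 4, and 9.46, 9.88 and 9.43 in dEx1A, against 8.96, 8.78 and 8.83 in wild type at day 7. In TLR cultures Nek6 read 10.26, 10.47 and 10.30 in dEx1A, against 9.76, 9.75 and 9.63 in wild type at day 4, and 10.18, 10.19 and 10.18 in dEx1A, against 8.73, 8.85 and 8.64 in wild type at day 7. BCR cultures gave Nek6 10.50, 10.70 and 10.67 in dEx1A, against 9.89, 9.87 and 9.80 in wild type at day 4, and 10.72, 10.79 and 10.79 in dEx1A, against 9.06, 9.02 and 8.75 in wild type at day 7. The closest libraries of the genotypes were 0.26 apart at day 4 in LPS, and at day 7 in TLR and BCR they were at least 1.33 apart. The differences were 0.58 ± 0.11 and 0.73 ± 0.11 in LPS at days 4 and 7, 0.63 ± 0.11 and 1.44 ± 0.11 in TLR and 0.77 ± 0.11 and 1.82 ± 0.11 in BCR. In normalised reads dEx1A held 1.70 times the wild type level at day 7 in LPS and 3.61 times at day 7 in BCR. Nek6 overlaps the antisense gene Psmb7, a proteasome subunit, over 6571 bases and shares 312 of its 10741 words (2.9%) with it, and the sources used here do not give the strand setting of the counting. Psmb7 differed in the same direction in all 6 comparisons. At days 4 and 7 its differences were 0.39 ± 0.12 (limma adjusted p = 0.0178) and 0.35 ± 0.12 (0.0777) in LPS, 0.25 ± 0.12 (0.209) and 0.38 ± 0.12 (0.00941) in TLR, and 0.28 ± 0.12 (0.364) and 0.90 ± 0.12 (4.1e-07) in BCR. Its part in the Nek6 values was not tested.

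Nek6 rose on activation in wild type cells. Over days 0, 4, 7 and 10 its wild type means were 7.79, 9.71, 8.74 and 9.18 in TLR and 7.79, 9.85, 8.94 and 10.23 in BCR. By limma the day 4 steps of 1.92 ± 0.41 (adjusted p = 0.000743) and 2.06 ± 0.41 (0.000359) passed, and the day 7 steps of -0.97 ± 0.41 (0.071) and -0.91 ± 0.41 (0.103) did not, though no library of day 7 overlapped those of day 4 and both passed when only the groups compared were fitted (0.000938 and 0.00461), as did that of TLR after GC correction (0.0422). The day 10 step passed in BCR (1.29 ± 0.41, 0.0368) and not in TLR (0.44 ± 0.41, 0.569). Library 1 of BCR day 10 read 10.98, library 2 read 10.87 and library 3 read 8.85, and the TLR day 10 libraries read 8.47, 9.98 and 9.10. Summed reads of 10 myeloid markers were 166570, 136665 and 20200 in the same BCR libraries and 8907, 56158 and 12680 in the TLR libraries, against 4103 to 9283 at day 7 in BCR and 3051 to 4834 in TLR. Lyz2, the lysozyme of macrophages, read 16.66, 16.39 and 13.50 in the BCR and 9.44, 14.92 and 12.08 in the TLR libraries of day 10. The library with the most myeloid reads had the highest Nek6 in each culture, and without libraries 1 and 2 of BCR day 10 the BCR step was -0.09 (adjusted p = 0.907). The step was also lost without any 1 of BCR day 7 libraries 1, 2 and 3 or day 10 libraries 1 and 2 (0.066 to 0.19). Between genotypes, the myeloid sums at day 4 were 4124 to 5913 in dEx1A and 2796 to 2961 in wild type in LPS. They were 784 to 1030 in dEx1A and 1165 to 1347 in wild type in TLR, and 1374 to 1944 in dEx1A and 906 to 1208 in wild type in BCR. At day 7 they were 5474 to 8662 in dEx1A and 5946 to 7075 in wild type in LPS. In TLR and BCR of day 7 they were 6473 to 10431 in dEx1A and 3051 to 4834 in wild type, and 4264 to 19077 in dEx1A and 4103 to 9283 in wild type. They were thus higher in dEx1A, as Nek6 was, without overlap in LPS day 4, BCR day 4 and TLR day 7, lower in TLR day 4, and overlapping in LPS day 7 and BCR day 7. Lyz2 alone overlapped between the genotypes where the sums were higher in dEx1A. It read 4.44 to 6.58 in dEx1A and 4.11 to 6.64 in wild type in LPS day 4. In BCR day 4 it read 4.22 to 6.55 and 4.01 to 5.35, and in TLR day 7 6.60 to 8.97 and 5.51 to 9.52. The part of myeloid reads in the Nek6 differences was not tested.

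**Figure D4:**
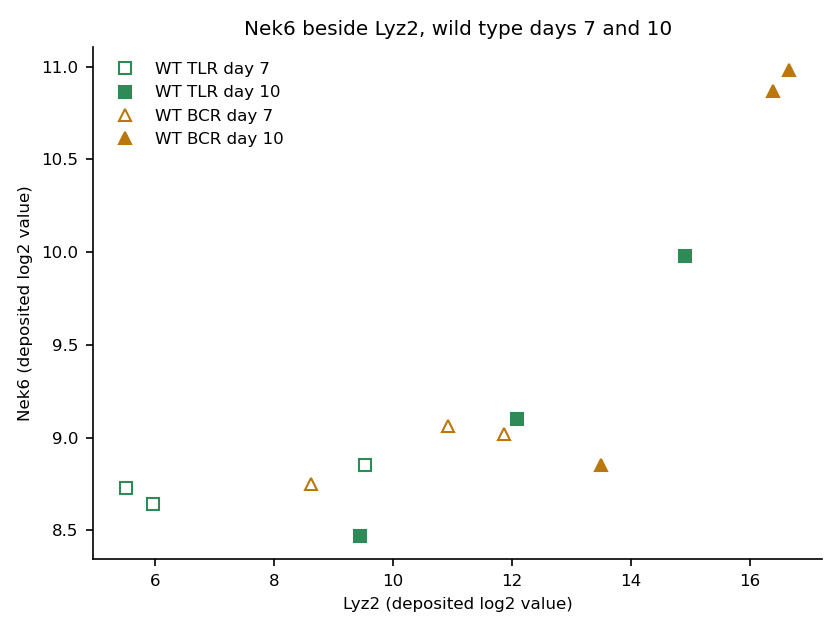
Nek6 against Lyz2 in wild type TLR and BCR libraries of days 7 (open) and 10 (filled), deposited log2 values, 3 libraries a group. The 3 libraries with Lyz2 of at least 14.92 are those with Nek6 of 9.98, 10.87 and 10.98, and the other 9 lie between 8.47 and 9.10.

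In dEx1A the Nek6 steps of day 7 were 0.33 ± 0.11 in LPS (limma adjusted p = 0.025), -0.16 ± 0.11 in TLR (0.225) and 0.14 ± 0.11 in BCR (0.296). The LPS call was lost without day 4 library 1 (0.0648), day 4 library 2 (0.122) or day 7 library 2 (0.251) and when only the groups compared were fitted (0.17), and the BCR step passed after GC correction (0.35, 0.00717). The wild type LPS step was 0.18 ± 0.11 (0.418). In dEx1A, LPS cultures had the least Nek6: LPS minus TLR was -1.08 ± 0.11 (4.02e-09) and -0.59 ± 0.11 (0.000256), and LPS minus BCR was -1.36 ± 0.11 (2.55e-11) and -1.18 ± 0.11 (7.86e-10), at days 4 and 7. TLR minus BCR was -0.58 ± 0.11 (0.00016) at day 7 and -0.28 ± 0.11 (0.0924) at day 4, where it passed after GC correction (-0.32, 0.0316). No difference between TLR and BCR passed in wild type, although that of day 10 (-1.05 ± 0.41, 0.092) passed without TLR library 2 (0.0238) or BCR library 3 (0.000182). Neighbouring groups overlapped in 8 of 14 pairs, with dEx1A BCR day 7 highest and day 0 lowest.

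The patterns most like that of Nek6 over the 15 group means were those of Tspan3, a tetraspanin (r = 0.954), Ak1, an adenylate kinase (0.936), and Ccdc120 (0.93). Between genotypes, 18 other NEK kinases and mitotic partners were tested, where rose means higher in dEx1A than in wild type and fell means lower. None passed at day 7 in LPS or day 4 in BCR, 1 rose and 1 fell at day 4 in LPS, and 1 rose at day 4 in TLR. Of all genes, 7.08%, 1.86%, 24.4% and 7.23% passed in these comparisons, in that order. At day 7, 5 rose and 6 fell in TLR, where 54.8% of all genes passed, and 5 rose and 3 fell in BCR, where 50.8% did. Nek7, the closest paralog, was lower in dEx1A than in wild type at day 7 in TLR (-1.40 ± 0.21, limma adjusted p = 2.47e-06) and BCR (-1.54 ± 0.21, 4.66e-07). It did not pass at day 7 in LPS (-0.26 ± 0.21, 0.635). Nek9, the kinase upstream of both, fell at day 7 in TLR (-0.67 ± 0.10, 1.48e-06) and BCR (-0.52 ± 0.10, 4.48e-05). Kif11 passed in none of the 6 comparisons. Among 15 cell division genes at day 7, 11 were higher in dEx1A than in wild type and none lower in TLR. In BCR at day 7, 9 were higher in dEx1A and 1 lower. At day 4, 4 were higher in dEx1A in TLR and 1 in LPS, and none passed at day 7 in LPS or day 4 in BCR. These are differences between genotypes and not steps in time. The shares of all genes passing in each comparison are those given above for the NEK list.

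**Figure D5:**
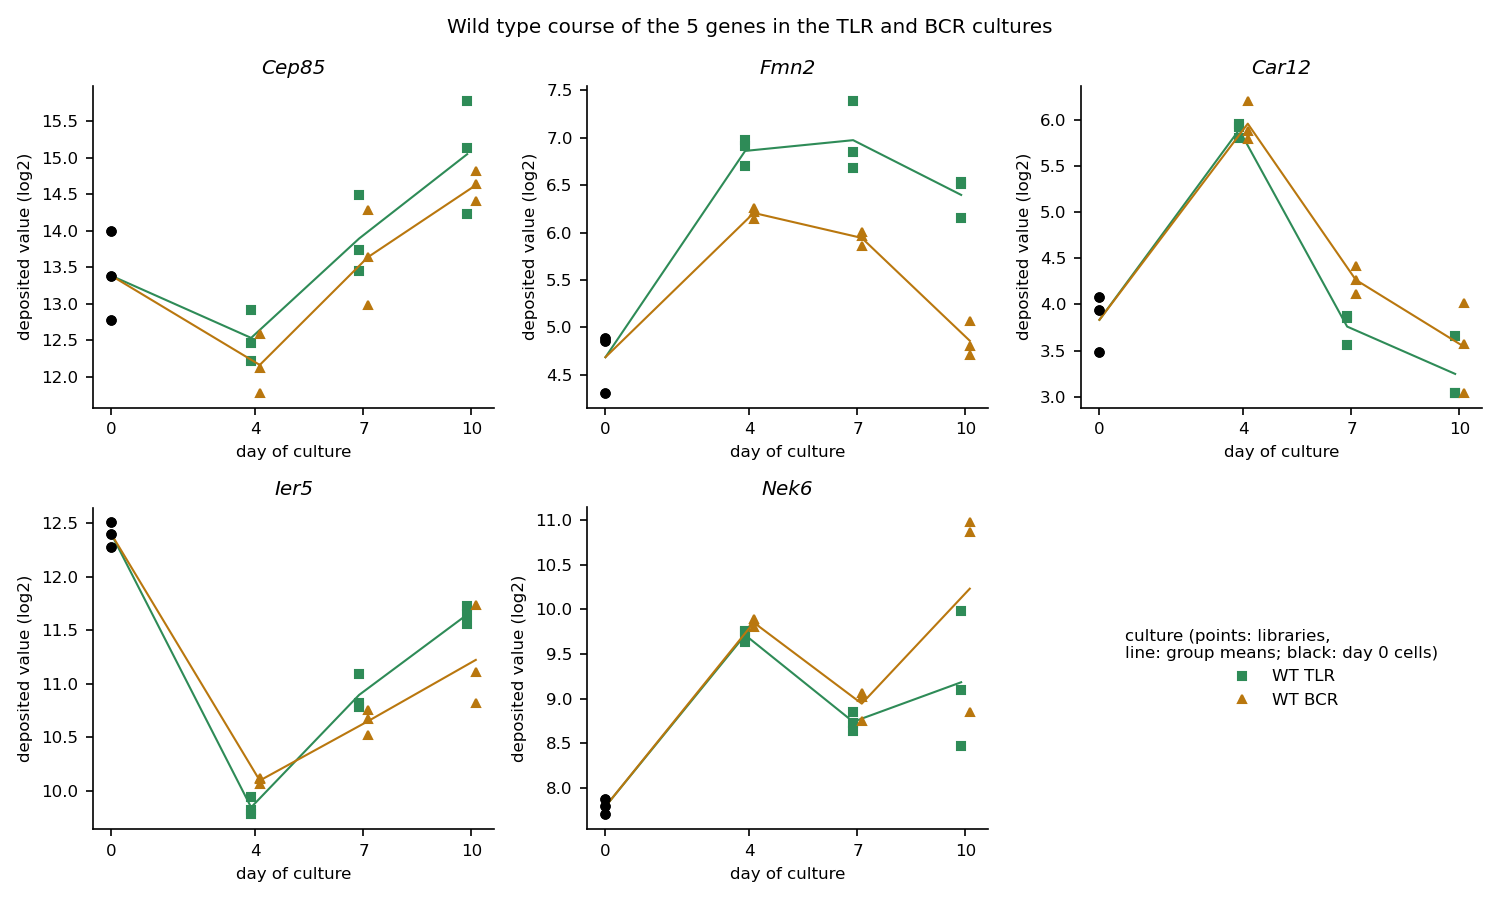
Deposited log2 values of the 5 genes in wild type cells at day 0 (black) and in TLR and BCR cultures at days 4, 7 and 10; points are libraries and lines join group means. Car12 and Fmn2 peak at day 4 or 7, Ier5 dips at day 4, and Nek6 spreads widely at day 10.

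The number of the 5 genes that passed in each step is set here beside the share of all genes that did. In wild type, 4 of 5 passed at day 4 in TLR and 5 of 5 in BCR, where 48.3% and 50.6% of the 19497 genes tested passed. At day 7, 3 of 5 passed in each culture (36.3% and 30.5% of genes), and at day 10, 1 passed in TLR (8.2%) and 4 in BCR (16.7%). The 4 calls of BCR day 10 fell to 0 when only the groups compared were fitted. Between TLR and BCR in wild type, none passed at day 4 by limma (7.57% of genes), where Fmn2 alone had an unadjusted p below 0.05 and voom, GC correction and untrended empirical Bayes each called 1, and 1 passed at day 7 (6.27%) and at day 10 (14.4%). In the LPS step of day 7, 2 of 5 passed in wild type (8.4%) and 2 in dEx1A (34.1%), and in dEx1A 3 passed in TLR (62.1%) and 3 in BCR (53.9%). In dEx1A, TLR and BCR differed in 2 genes at day 4 (16.7%) and 4 at day 7 (31.5%), LPS and TLR in 1 at day 4 (45.3%) and 2 at day 7 (17.4%), and LPS and BCR in 2 at day 4 (36%) and 4 at day 7 (29.8%). The dEx1A steps of day 7 set libraries of one set against those of the other, so day and library set cannot be told apart there.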

How the data were processed

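RNA of 45 cultures or cell isolates was sequenced as single reads from stranded total RNA libraries, per the labels' protocols. The submitters' processing notes name the aligner STAR 2.6.0c, the quantifier RSEM 1.3.0, the trimmer Trim Galore 0.6.0 and DESeq2 1.22.2, and list mm10 and GRCm38.p6 beside a human build; annotation and strand setting were not stated. The authors deposited variance-stabilised log2 values in 2 tables of 21 and 39 libraries, whose 15 shared columns are identical. Normalised reads were recovered by inverting that transformation from a floor of 3.041. Within 0.1 read, 96.8% to 100.0% of values under 20 reads per library were whole. Chance gives 20% for settings fixed in advance. Here the floor and the size of 1 read in each library were chosen to make this share highest. No 2 libraries of a group were copies (chi-square per gene 11.24 to 474.73 in 45 pairs).

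Each table was fitted as 1 model of its group means with limma 3.58.1 in R 4.3.3 (trended empirical Bayes, two-sided, Benjamini-Hochberg adjusted p below 0.05), for genes at least 1 above the floor in at least 3 libraries, leaving 19497 and 20331 genes. Wild type steps and TLR against BCR in wild type came from the first table, all else from the second. ± is the SE of the fit. On simulated data the fit recovered most changed genes but made more false calls than the nominal rate, mostly among genes with few reads in the groups compared, so adjusted p-values near 0.05 and those of genes near the floor are less certain than they read. The members, gene lists and tests were chosen with earlier results of these data known. Named besides the 5 members are listed relatives, genes sharing sequence or meeting the same rule, genes just outside it, and the 3 nearest patterns per member. Alternatives were no filter, fits of only the groups compared, voom on recovered reads, GC correction, a replicate block, untrended empirical Bayes and leaving out libraries; 1, without BCR day 10 libraries 1 and 2, was chosen after seeing the data.

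Replicate numbers were taken to pair libraries where all 3 correlations of same-numbered deviations were over 0.1, which held for the day 7 step of dEx1A LPS, TLR against BCR at days 4 and 10 in wild type and day 4 in dEx1A, and dEx1A against wild type at day 4 in BCR. Shared sequence was counted as 50-base words of GENCODE M21 transcripts (GRCm38), to which 27478 of 28196 gene IDs matched. All 5 members matched the RefSeq promoter table.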

Additional observations from a re-analysis of the deposited data

Results flagged for a closer look

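The Nek6 step between days 4 and 7 in BCR cultures was 0.14 in dEx1A and -0.91 in wild type (log2, 3 libraries a group and day), with every dEx1A library of day 7 above every one of day 4 and every wild type library of day 7 below every one of day 4. The difference between the genotypes' steps was not tested, and neither step passed in the fit over all groups. The dEx1A libraries of days 4 and 7 fell in different library sets, as split by reads and GC offset, and the wild type ones in the same set. By label the genotypes also differed in sex and age here. The wild type step passed when only the groups compared were fitted (adjusted p = 0.00461, limma), and the dEx1A step passed after GC correction (0.35, 0.00717).

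Car2 differed in opposite directions between cultures at day 7: dEx1A minus wild type was -1.52 in LPS, 1.28 in TLR and 1.28 in BCR, and the genotypes' libraries did not overlap in any of these cultures. The difference between cultures was not tested. The LPS groups were alike in sex, age and library set, and the TLR and BCR groups were not.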

How the results depend on the processing

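Counts of the 5 genes passing are given first for the alternative and then, in parentheses, as reported. Fitting only the groups compared gave 0 (4) for BCR day 10 against 7 and 0 (1) for TLR against BCR at day 10 in wild type. In dEx1A it gave 1 (3) for BCR day 7 against 4, 0 (2) and 2 (4) for TLR against BCR at days 4 and 7, 2 (1) for LPS against TLR at day 4 and 2 (4) for LPS against BCR at day 7. It left 0 (11), 0 (1) and 36 (62) related genes passing between genotypes in TLR day 4, BCR day 4 and BCR day 7, and over all genes 709 (1440) in LPS day 7, 25 (1469) in TLR day 4, 47 (378) in BCR day 4 and 6361 (10330) in BCR day 7. In wild type it left 2 (3253) genes in BCR day 10 against 7, 606 (1599) in TLR day 10 against 7 and 0 (2803) in TLR against BCR at day 10. No filter gave 1 (2) for LPS against BCR at day 4 in dEx1A. Voom, GC correction and untrended empirical Bayes each gave 1 (0) for TLR against BCR at day 4 in wild type. GC correction gave 2 (1) for LPS against TLR at day 4 in dEx1A, 16 (7), 17 (11) and 4 (1) related genes in LPS day 7, TLR day 4 and BCR day 4, and 681 (378) genes in all in BCR day 4. These fits differ in the samples, genes or values used, and the cause of each move was not tested.

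The replicate block changed no call of the 5 genes in the comparisons whose numbers pair libraries. Elsewhere, where the numbers were not taken to pair libraries, it gave 2 (1) for TLR day 10 against 7 in wild type, and Cep85 then passed in TLR day 4 against 0 (-0.85, adjusted p = 0.002), TLR day 10 against 7 (1.15, 0.00212), BCR day 10 against 7 (0.99, 0.00317) and dEx1A LPS against BCR at day 4 (0.59, 0.0373). Without BCR day 10 libraries 1 and 2, 2 (4) passed in BCR day 10 against 7 and Nek6 turned to -0.09.

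Leaving out 1 library at a time, the counts in wild type ranged over 4 to 5 in TLR and in BCR day 4 against 0, 2 to 3 in TLR and in BCR day 7 against 4, 0 to 2 in TLR day 10 against 7, 1 to 4 in BCR day 10 against 7, 2 to 2 in LPS day 7 against 4, and 0 to 1, 0 to 1 and 1 to 3 in TLR against BCR at days 4, 7 and 10. In dEx1A they ranged over 1 to 3, 2 to 3 and 2 to 3 in day 7 against 4 in LPS, TLR and BCR, 0 to 3 and 4 to 4 in TLR against BCR, 1 to 1 and 2 to 3 in LPS against TLR, and 1 to 2 and 2 to 4 in LPS against BCR at days 4 and 7. Related genes passing between genotypes ranged over 13 to 30 and 4 to 8 in LPS, 5 to 27 and 54 to 60 in TLR, and 1 to 2 and 48 to 62 in BCR at days 4 and 7. Car12 in wild type at day 7 and later, and Fmn2 at day 0, rest on few reads, where depth limits the precision.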
